A study of Mus musculus with 8 samples.

Results

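The genes described here mark or build the boundary between midbrain and hindbrain in the embryo: *En1*, *En2*, *Pax2*, *Pax5*, *Gbx2*, *Wnt1*, *Fgf8* and *Lmx1b*. They were listed by name, with earlier results of these data known. Every probe set (a group of short probes that reads 1 transcript) annotated to a listed gene was taken. Of the 8 genes, 7 have at least 1 probe set, 9 probe sets in all, among 45037 probe sets and 18193 genes on the array. *Pax2* has none in the annotation used and is not analysed here. Each value below is the signal of a probe set on 1 array, in arbitrary intensity units, after the 8 arrays were scaled to a common distribution.

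RNA came from E12.5 brain of C57/BL6 embryos. The mutants carried the *Nestin Cre* transgene and 2 copies of the inverted gene trap in *Rest* (*Cre+, Rest GTi/GTi*, 4 arrays), and the controls carried the same 2 inverted copies without Cre (*Rest GTi/GTi*, 4 arrays). The inverted cassette permits normal splicing of *Rest* until Cre, expressed here in neural progenitors, turns it back into a trap. Cre and the loss of REST, a repressor of neuronal genes, therefore went together on every mutant array and cannot be told apart. The labels call the arrays biological replicates and do not say whether each holds 1 embryo, so p-values measure the spread between these arrays.

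The boundary, or isthmus, acts as an organizer that patterns the tissue on both of its sides. FGF8 is secreted from the hindbrain side and WNT1 from a ring of cells on the midbrain side, and each helps to keep the other expressed. The engrailed genes *En1* and *En2* and the paired-box genes *Pax2* and *Pax5* encode transcription factors that span the boundary. *Gbx2* encodes a homeodomain protein of the anterior hindbrain that opposes the midbrain factor OTX2, and *Lmx1b* encodes a LIM homeodomain protein needed to maintain the organizer. Several of these genes are also used elsewhere in the embryo: *Gbx2* in the thalamus, *Fgf8* in the rostral forebrain and facial ectoderm, *En1* in spinal and hindbrain interneurons, *Lmx1b* in dopaminergic, serotonergic and dorsal spinal neurons. In RNA of a whole brain, fewer cells of a type and less RNA per cell cannot be told apart.

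The arrays did not all hold the same mixture of transcripts. The targeted gene *Rest* overlapped between genotypes. Its brightest probe set read 163.1, 216.7, 84.4 and 133.7 on mutant arrays 1 to 4, against 170.1 to 271.8 on control arrays (log2 fold change -0.51, standard error 0.25, adjusted p from limma = 0.758). Another bright one read 161.0, 203.6, 76.6 and 77.1 on mutant arrays 1 to 4, against 158.4 to 223.1 on controls (-0.63, standard error 0.29, adjusted p from limma = 0.743). Where the probes of *Rest* lie relative to the trap is not known here. Neural markers were bright on every array, with *Sox2* at 3629.3 to 4498.0 in mutants and 3950.7 to 4502.9 in controls. The mean of 12 mesenchyme markers, relative to controls, was 2.27 and 3.30 on mutant arrays 1 and 2, -0.13 and -0.33 on mutant arrays 3 and 4, and -0.38 to 0.45 on controls (log2 units). *Dcn* and *Foxc1* of that list read 470.1 and 205.3 on mutant array 1, against at most 61.9 and 59.5 on controls. The mean of 17 *Hox* and segment genes, which mark the hindbrain behind the boundary region and the spinal cord, was -0.37, 0.38, 1.42 and 0.78 on mutant arrays 1 to 4 and 0.45, -0.18, -0.22 and -0.050 on control arrays 1 to 4. This posterior reading varied within each genotype and overlapped between them. Of the 17 genes, 0 had an unadjusted p under 0.05, against 6.97% of all genes. The sexes were not balanced. The Y-linked gene *Eif2s3y* read 689.0 to 845.3 on mutant arrays, against 627.2 and 736.0 on control arrays 1 and 4 and 5.7 and 0.2 on control arrays 2 and 3, the only arrays with high *Xist* (7875.1 and 8247.1).

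None of the 7 boundary genes passed the test between genotypes. At an adjusted p under 0.05 limma called 0 of 7, against 41 of 18193 genes (0.225%) on the array, of which 39 (0.214%) were higher and 2 (0.011%) lower in mutants. At an unadjusted p under 0.05 the count was 0 of 7, against 6.97% of all genes. The methods' t-test called 0 with equal and 0 with unequal variances. In mutants 2 of the 7 genes lay above the control level and 5 below. Their median was -0.081 on the log2 scale, against -0.0014 over all genes. The mutant and control arrays overlapped for all 7 genes, where 4.64% of all genes have groups that do not overlap.

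**Figure D1:**
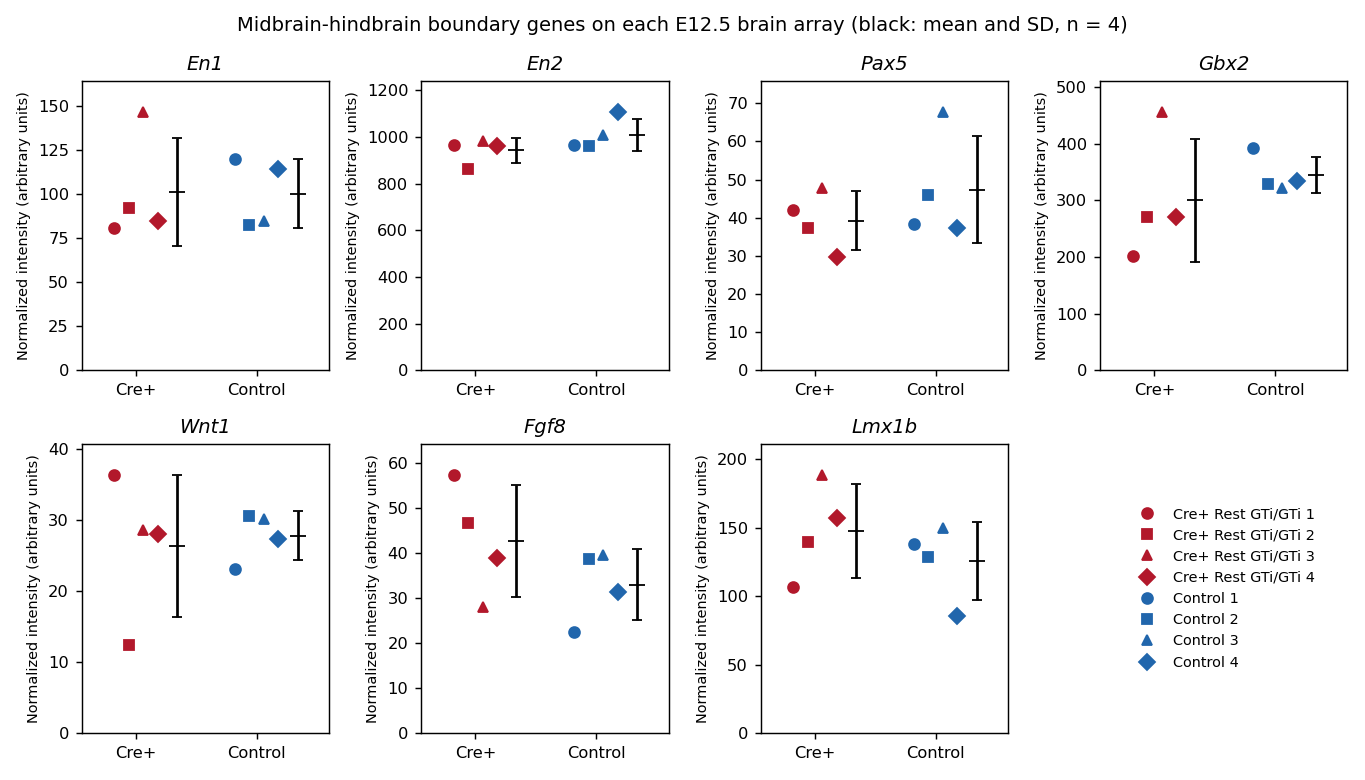
Normalized intensity (arbitrary units, axes starting at 0) of the 7 boundary genes with a probe set on each E12.5 brain array, mutants on the left and controls on the right of each panel. Symbols mark the array number, and black bars the mean and SD of 4 arrays. Mutant array 3 is the highest of all 8 for *En1*, *Gbx2* and *Lmx1b*, and mutant array 1 the highest for *Fgf8* and *Wnt1*.

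*En2*, the engrailed gene whose expression lasts in midbrain and cerebellum, gave the steadiest reading. It lies on mouse chromosome 5 (28165696 to 28172190, GRCm38.p6). Its intensity was 966.8, 864.3, 984.4 and 960.0 on mutant arrays 1 to 4, and 965.7, 959.8, 1006.6 and 1107.2 on control arrays 1 to 4. Mutant array 2 was the lowest and control array 4 the highest, and the other 6 lay within 959.8 to 1006.6. The means were 944 ± 54.0 in mutants and 1010 ± 68.2 in controls (SD, n = 4 each), a log2 fold change of -0.095 (standard error 0.077, 95% interval -0.27 to 0.080, adjusted p from limma = 0.877). It ran from -0.12 to -0.051 (without control array 4) on leaving out 1 array. The spread of *En2* within a genotype was 0.089 on the log2 scale, and the median over the 10694 genes with a mean intensity of at least 64 was 0.12.

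*En1*, the partner of *En2* in the early boundary, varied more, with a spread within a genotype of 0.30. It lies on chromosome 1 (120602487 to 120607991, GRCm38.p6). Its intensity was 81.0, 92.1, 146.6 and 84.9 on mutant arrays 1 to 4, against 120.0, 82.4, 84.6 and 114.0 on control arrays 1 to 4. Mutant array 3 stood above all controls and mutant array 1 just below all of them, while the controls formed a higher and a lower pair. The lower pair is control arrays 2 and 3, the arrays without *Eif2s3y* signal. The genotype means were nearly equal, 101 ± 30.6 in mutants and 100.3 ± 19.5 in controls (SD, n = 4 each), and the log2 fold change was -0.0061 (standard error 0.19, 95% interval -0.43 to 0.42, adjusted p from limma = 0.998). Leaving out 1 array gave -0.17 (without mutant array 3) to 0.074. Leaving out control arrays 2 and 3 gave -0.22, and leaving out mutant arrays 1 and 2, which carried the mesenchyme signal, gave 0.16, so the sign depends on the arrays kept.

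*Gbx2*, the hindbrain-side homeobox gene, lies on the same chromosome (89927962 to 89931176, GRCm38.p6). It read 201.4, 271.2, 455.7 and 270.1 on mutant arrays 1 to 4, against 392.3, 329.5, 322.4 and 333.3 on control arrays 1 to 4. Mutant arrays 1, 2 and 4 lay below every control and mutant array 3 above every control. The means were 299.6 ± 109 in mutants and 344 ± 32.2 in controls (SD, n = 4 each), a log2 fold change of -0.25 (standard error 0.21, 95% interval -0.73 to 0.23, adjusted p from limma = 0.883). Leaving out 1 array gave values between -0.46 (without mutant array 3, adjusted p from limma = 0.446) and -0.087 (without mutant array 1, adjusted p from limma = 0.972), and with mutant arrays 3 and 4 alone the value was 0.032.

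*Lmx1b*, on chromosome 2 (33560965 to 33641208, GRCm38.p6), is read by 2 probe sets. On the brighter one the intensity was 106.5, 139.3, 188.8 and 156.8 on mutant arrays 1 to 4, against 138.5, 128.4, 150.2 and 85.4 on control arrays 1 to 4. The highest 2 values were those of mutant arrays 3 and 4, and the lowest was control array 4. The log2 fold change was 0.21 (standard error 0.19, 95% interval -0.23 to 0.65, adjusted p from limma = 0.897), and 0.44 (standard error 0.21, adjusted p from limma = 0.837) with mutant arrays 3 and 4 alone. Leaving out 1 array gave values between 0.058 (without control array 4) and 0.34 (without mutant array 1). The dimmer probe set, at 3.2 to 17.2 in mutants and 9.7 to 23.1 in controls, pointed the other way (-0.33, standard error 0.19, adjusted p from limma = 0.805). Its mean over all arrays is below the constant of 16 that was added to all intensities before taking log2, and the mean of both probe sets gave -0.061.

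The secreted signals of the organizer were read at low intensity. *Fgf8*, on chromosome 19 (45736491 to 45742941, GRCm38.p6), read 57.3, 46.5, 27.9 and 38.9 on mutant arrays 1 to 4, against 22.4, 38.5, 39.4 and 31.3 on control arrays 1 to 4. Mutant arrays 1 and 2 lay above every control, and mutant array 3 below 3 of the 4 controls. The log2 fold change was 0.25 (standard error 0.18, 95% interval -0.15 to 0.65, adjusted p from limma = 0.845). Leaving out 1 array gave values between 0.14 (without mutant array 1) and 0.38 (without mutant array 3), and with mutant arrays 3 and 4 alone the value was 0.020. Mutant arrays 1 and 2 are those with the high mesenchyme mean. The mean of 12 markers of head epithelium, eye and ear was 0.23, 0.47, -0.091 and 0.035 on mutant arrays 1 to 4, and -0.12 to 0.12 on controls, with 7 of the 12 above and 5 below the control level. Within that list *Epcam*, an epithelial adhesion gene, gave 0.67 and *Cdh1*, another one, -0.060, and the part of these markers in the *Fgf8* reading was not tested.

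*Wnt1*, on chromosome 15 (98789857 to 98793830, GRCm38.p6), read 36.4, 12.4, 28.6 and 28.0 on mutant arrays 1 to 4, against 23.1, 30.6, 30.2 and 27.4 on control arrays 1 to 4. Both the highest and the lowest value came from mutants, on the 2 arrays with mesenchyme. The log2 fold change was -0.081 (standard error 0.18, 95% interval -0.48 to 0.32, adjusted p from limma = 0.971), and it ran from -0.19 to 0.099 (without mutant array 2) on leaving out 1 array. *Pax5*, on chromosome 4 (44524748 to 44710694, GRCm38.p6), read 42.1, 37.2, 47.9 and 29.8 on mutant arrays 1 to 4, against 38.4, 46.0, 67.7 and 37.4 on control arrays 1 to 4 on its brighter probe set. Control array 3 was highest and mutant array 4 lowest, and the remaining 6 arrays mixed the genotypes. The log2 fold change was -0.18 (standard error 0.16, 95% interval -0.56 to 0.19, adjusted p from limma = 0.887), and the second probe set, with a mean of 11.3 over all arrays, gave 0.058 (standard error 0.28). Leaving out 1 array gave values of the brighter one between -0.26 and -0.043 (without control array 3).

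**Figure D2:**
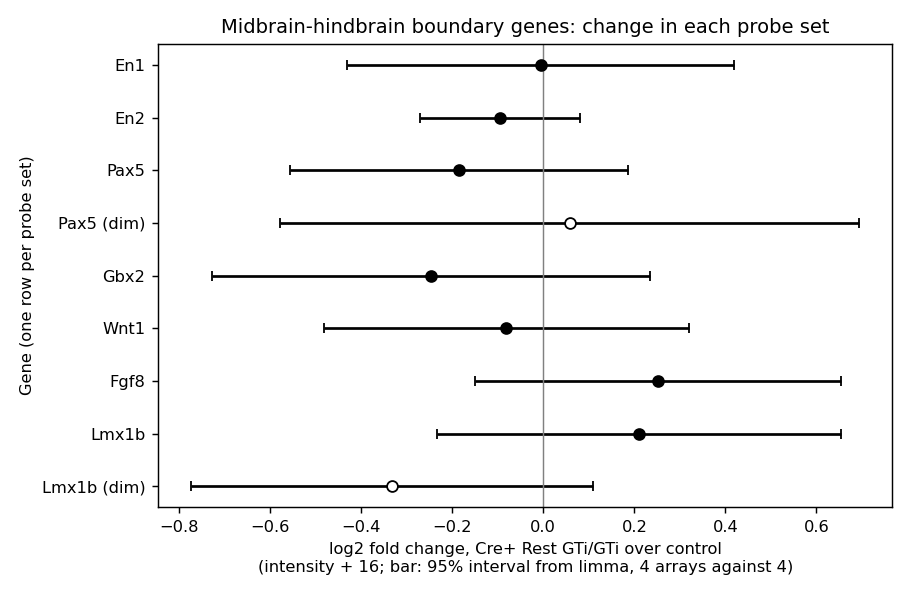
Log2 fold change (mutant over control, intensity plus 16) of the 9 probe sets of the boundary genes. Points are estimates from 4 arrays against 4, bars are 95% intervals from limma, and open circles mark the dimmer probe sets of *Pax5* and *Lmx1b*. Every interval includes 0, from the narrowest for *En2* (-0.27 to 0.080) to the widest for the dimmer *Pax5* probe set (-0.58 to 0.69).

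The boundary genes did not move as a block from array to array. Their mean, relative to controls, was -0.065, -0.14, 0.19 and -0.076 on mutant arrays 1 to 4, and -0.025, -0.0061, 0.096 and -0.065 on control arrays 1 to 4 (log2 units). *En1*, *Gbx2* and *Lmx1b* were highest on mutant array 3, and within the mutants lowest on array 1. *Fgf8* had the opposite order there, highest on array 1 and lowest on array 3. The *Hox* and segment mean was also lowest on mutant array 1 and highest on mutant array 3. Among controls the array with the highest *Hox* and segment mean, array 1, had the highest *En1* and *Gbx2* and the lowest *Fgf8*. *Lmx1b* differed, as its highest control was array 3 (150.2), which had the lowest *Hox* and segment mean of the controls (-0.22).

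**Figure D3:**
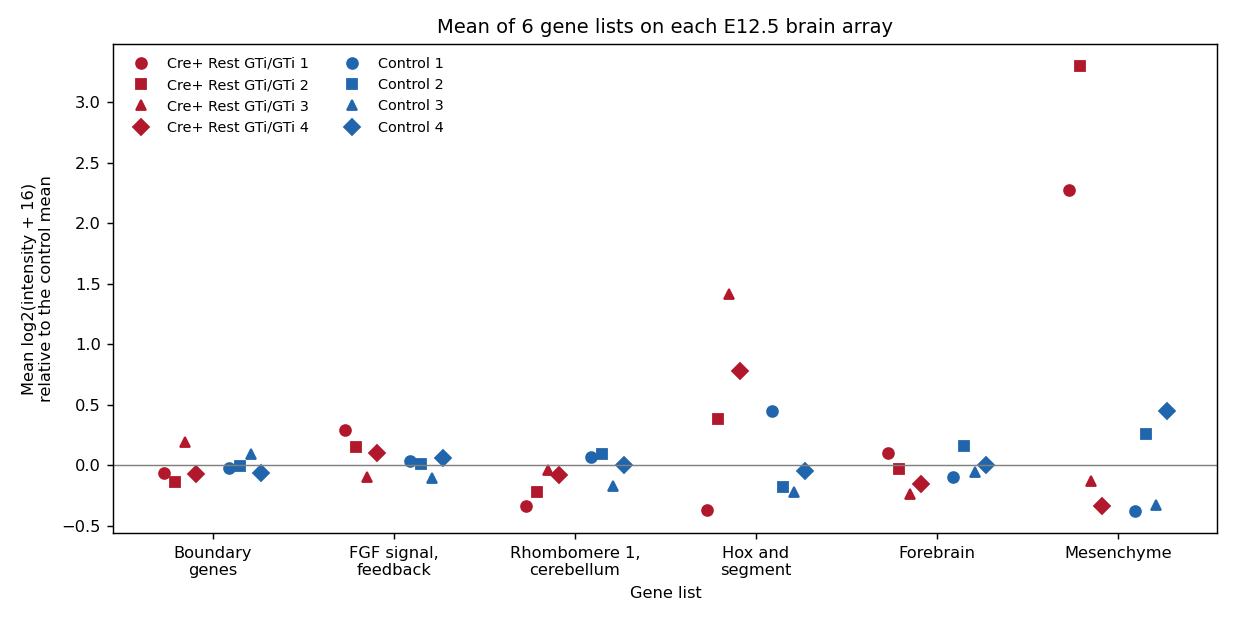
Level of 6 gene lists by array, as the average log2(intensity + 16) of a list minus its average in controls, mutants left of controls. The boundary genes lie between -0.14 and 0.19 on every array, the *Hox* and segment genes between -0.37 and 1.42, and the mesenchyme markers reach 2.27 and 3.30 on mutant arrays 1 and 2.

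The *Hox* and segment mean of each array was added to the fit, with 1 slope shared by both genotypes. Only mutant array 2, at 0.38, lay within the control readings of -0.22 to 0.45. For the other mutant arrays the fit extends the slope beyond the controls, so it does not compare genotypes at a like posterior reading. *Gbx2* then had a slope of 0.56 log2 units per log2 unit of the *Hox* and segment mean (standard error 0.092) and *Fgf8* a slope of -0.47 (standard error 0.079), each with an adjusted p from limma = 0.232. *En1* had 0.42 (standard error 0.13, adjusted p from limma = 0.382) and *Lmx1b* 0.37 (standard error 0.16, adjusted p from limma = 0.512), while *En2*, *Pax5* and *Wnt1* had 0.013, -0.055 and -0.11. Outside the *Hox* and segment list 0 slopes (0%) passed an adjusted p under 0.05, and 12% had an unadjusted p under 0.05, against 3 of the 7 boundary genes. In this fit the genotype difference of *Gbx2* was -0.56 (standard error 0.10, adjusted p from limma = 0.196) and that of *Fgf8* 0.51 (standard error 0.090, adjusted p from limma = 0.173). Neither was called, and 28 of 18193 genes (0.154%) were. At an unadjusted p under 0.05 these 2 of the 7 stood, against 11.6% of all genes. The other 5 boundary genes ranged from -0.24 for *En1* to 0.0078 for *Lmx1b*.

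When arrays were left out one at a time, neither value changed sign. The genotype difference in this fit ran from -0.62 to -0.50 for *Gbx2* and from 0.44 to 0.64 for *Fgf8*, with adjusted p from limma between 0.173 and 0.611 for *Gbx2* and between 0.223 and 0.611 for *Fgf8*. The slope ran from 0.38 (without mutant array 3) to 0.63 for *Gbx2* and from -0.59 to -0.42 for *Fgf8*. Of the 17 *Hox* and segment genes, 12 read higher in mutants and 5 lower, and the middle value was 0.25 log2 units. The 5 lower ones ran from -0.23 for *Hoxa5* to -0.062 for *Hoxa7*. Of the 17, 7 have a mean intensity below 16. The 4 with the smallest p, *Hoxb3*, *Hoxd3*, *Hoxa3* and *Hoxc4*, pattern the posterior hindbrain and neck. Their log2 fold changes were 2.14, 1.71, 1.43 and 1.59, none called. On leaving out 1 array these ran from 1.45 to 3.24, from 1.21 to 2.39, from 0.95 to 2.02 and from 0.76 to 2.06. *Hoxc4* read 2.5, 11.4, 267.9 and 34.2 on mutant arrays 1 to 4, against 0.7 to 2.4 on controls, so its value rests mainly on mutant array 3.

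**Figure D4:**
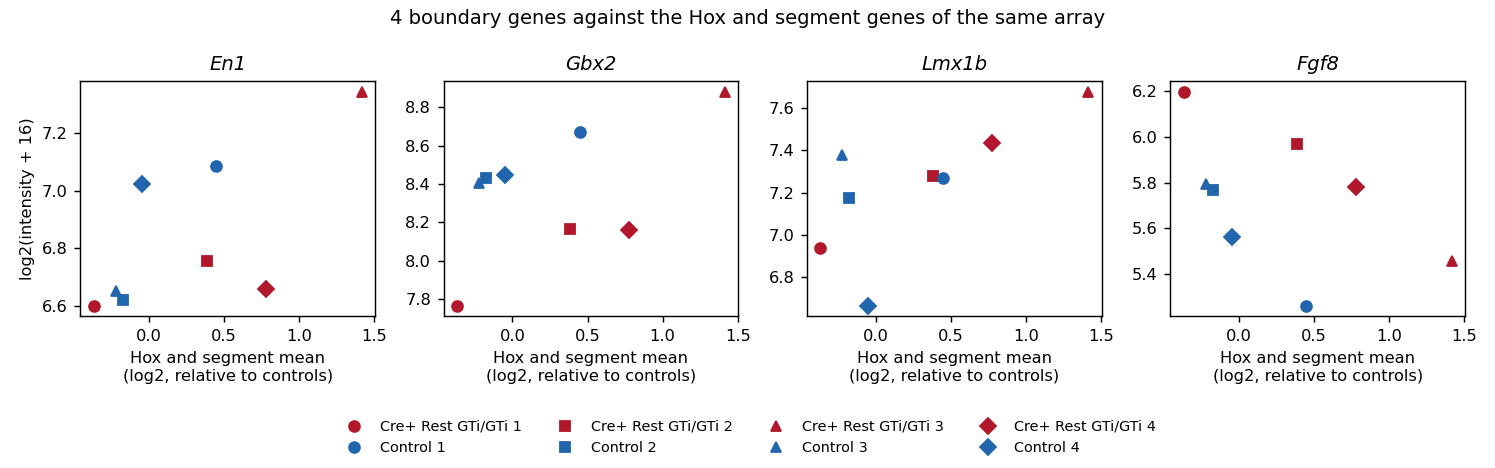
Log2(intensity + 16) of *En1*, *Gbx2*, *Lmx1b* and *Fgf8* (vertical axes, log2 units) against the mean of the *Hox* and segment genes on the same array, relative to controls (horizontal axes, log2 units). Each point is 1 array. Within each genotype the arrays with the highest *Hox* and segment mean, mutant 3 (1.42) and control 1 (0.45), have the highest *Gbx2* and *En1* and the lowest *Fgf8*. *Lmx1b* is highest on mutant 3, but among controls on control 3.

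With the mesenchyme mean in the fit instead, the 7 genotype differences ran from -0.18 for *Pax5* to 0.40 for *Lmx1b*, and 0 of 7 were called, against 0.126% of all genes (0 of 7 against 6.06% at an unadjusted p under 0.05). *Fgf8* was 0.085 and *Gbx2* -0.061 in that fit. The slopes on the mesenchyme mean were 0.13 for *Fgf8*, -0.14 for *Gbx2* and -0.15 for *Lmx1b*, and none of the 7 was called, against 0.352% of genes outside the mesenchyme list (0 of 7 against 10.3% at an unadjusted p under 0.05). Among the mutants array 1 was low in the *Hox* and segment mean and high in the mesenchyme mean, and arrays 3 and 4 were the reverse, so the part of each cannot be told apart on 4 mutant arrays.

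FGF8 acts through receptors that switch on a set of feedback genes. Of 18 listed FGF genes, which include ligands and receptors beside feedback genes, 17 were measured. Of these, 14 lay above and 3 below the control level (median log2 difference 0.080). None was called by limma (0) or the methods' t-test (0), and 1 had an unadjusted p under 0.05 (6.97% of all genes did). That gene was *Dusp6*, a phosphatase that limits ERK signalling, which read 564.0, 526.1, 379.8 and 445.5 on mutant arrays 1 to 4, against 404.4, 378.4, 367.5 and 362.0 on control arrays 1 to 4 (log2 fold change 0.31, standard error 0.12, adjusted p from limma = 0.683). Its 2 highest values fell on mutant arrays 1 and 2, the arrays where *Fgf8* was highest. Among controls the order differed, with *Dusp6* highest on array 1 (404.4), where *Fgf8* was lowest (22.4). The receptor *Fgfr1* gave 0.14, the ligand *Fgf18* 0.24, and *Etv4*, a transcription factor induced by FGF, 0.47. *Etv4* read 39.2, 35.4, 14.2 and 8.5 on mutant arrays 1 to 4, so it too was highest on the first 2. On control arrays 1 to 4 it read 4.6, 23.7, 4.0 and 19.2, with *Fgf8* at 22.4, 38.5, 39.4 and 31.3. With the mesenchyme mean in the fit the median of the list was 0.034, and with mutant arrays 3 and 4 alone it was -0.018.

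All 19 genes of a WNT list were measured, 12 above and 7 below the control level, with a median of 0.14. With limma 0 were called, with the methods' t-test 0, and 1 had an unadjusted p under 0.05 (6.97% of all genes did). It was *Lef1*, a nuclear mediator of WNT signals, which read 901.6, 715.7, 798.7 and 702.7 on mutant arrays 1 to 4, against 646.2, 625.2, 665.4 and 612.3 on control arrays 1 to 4. Every mutant array lay above every control, as they do for 2.48% of all genes (log2 fold change 0.28, standard error 0.091, adjusted p from limma = 0.594). *Apcdd1*, an inhibitor of WNT signals, gave 0.29, the coreceptor *Lrp6* -0.12 and the secreted antagonist *Notum* -0.18, none called. The mean of the list was highest on mutant array 1 (0.49, against -0.14 to 0.12 on the other mutant arrays and -0.12 to 0.14 on controls). With the mesenchyme mean in the fit the median of the list was -0.039, and with mutant arrays 3 and 4 alone it was -0.055.

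Other transcription factors of the midbrain and isthmus lay mostly below the control level. Of 17 listed, 15 were measured, 3 above and 12 below, with a median of -0.10. Limma called 0, the methods' t-test 0, and 2 had an unadjusted p under 0.05 (6.97% of all genes did). *Sox14*, a gene of GABAergic neurons in midbrain and diencephalon, read 91.2, 61.2, 102.6 and 94.8 on mutant arrays 1 to 4, against 121.7, 173.0, 109.9 and 123.2 on control arrays 1 to 4 (log2 fold change -0.52, standard error 0.17, adjusted p from limma = 0.594). All mutants lay below all controls, as for 2.15% of all genes. *Dmbx1*, a midbrain homeobox gene, was dim, at 18.2 to 24.6 in mutants and 4.8 to 16.9 in controls (0.43, standard error 0.15, adjusted p from limma = 0.653). *Sp8*, a zinc finger gene of the isthmus, gave -0.26, and *Tal2*, a gene of midbrain GABAergic neurons, -0.28. The mean of the list was -0.16 and -0.28 on mutant arrays 1 and 2, those with the mesenchyme signal, 0.088 and 0.023 on mutant arrays 3 and 4, and -0.038 to 0.030 on controls. The median was 0.00030 with mutant arrays 3 and 4 alone and -0.033 with the mesenchyme mean in the fit.

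*Otx2*, the midbrain counterpart of *Gbx2*, and *Pax8*, the close relative of *Pax2* and *Pax5*, fall outside the rule for named genes, and they were picked once the values were known. *Otx2* read 2555.8, 1921.1, 1961.3 and 2278.2 on mutant arrays 1 to 4, against 2112.4, 2407.9, 2314.5 and 2354.3 on control arrays 1 to 4. Its log2 fold change was -0.084 (standard error 0.10). On mutant array 1 *Otx2* was at its highest and *Gbx2* at its lowest of all 8 arrays. *Pax8* read 42.2, 74.2, 191.7 and 113.3 on mutant arrays 1 to 4, against 109.8, 34.4, 53.6 and 61.5 on control arrays 1 to 4, with the same array highest in each genotype as for the *Hox* and segment mean.

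The boundary sets where dopaminergic neurons form in front of it and serotonergic neurons behind it. All 14 dopaminergic genes were measured, 7 above and 7 below the control level, with a median of -0.0037. None was called by limma (0) or the methods' t-test (0), and 4 had an unadjusted p under 0.05 (6.97% of all genes did). *Th*, the rate-limiting enzyme of dopamine synthesis, read 84.6, 89.3, 132.0 and 99.6 on mutant arrays 1 to 4, against 120.2, 151.3, 149.3 and 144.8 on control arrays 1 to 4 (log2 fold change -0.44, standard error 0.13, adjusted p from limma = 0.556). Only mutant array 3 reached into the control range. *Slc18a2*, the vesicular monoamine transporter, gave -0.24 (adjusted p from limma = 0.563). Every mutant array, at 289.4 to 341.4, lay below every control, at 360.3 to 400.5, as for 2.15% of all genes. The transcription factor *Pitx3* was dim, at 11.7 to 23.3 in mutants and 21.1 to 49.9 in controls, and gave -0.46. The receptor *Ret* gave 0.36.

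Of 8 serotonergic genes 7 were measured, 3 above and 4 below the control level, with a median of -0.15. With limma 0 were called, with the methods' t-test 0, and 2 had an unadjusted p under 0.05 (6.97% of all genes did). *Nkx2-2*, a ventral progenitor factor, read 388.6, 318.2, 468.3 and 448.0 on mutant arrays 1 to 4, against 519.9, 643.7, 514.6 and 490.6 on control arrays 1 to 4 (log2 fold change -0.41, standard error 0.14, adjusted p from limma = 0.602), with no overlap. *Gata2* and *Gata3*, transcription factors of serotonergic and midbrain GABAergic neurons, gave -0.18 and -0.30, and the monoamine oxidase *Maob* 0.18. For *Nkx2-2* and *Gata2* all mutants lay below all controls, as for 2.15% of all genes. The median of the list was -0.0068 with mutant arrays 3 and 4 alone.

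Genes of rhombomere 1 and the cerebellum, the tissue directly behind the boundary, lay mostly below the control level. Of 13 listed, 11 were measured, 2 above and 9 below, with a median of -0.12 (-0.27 with the *Hox* and segment mean in the fit). Limma called 0, the methods' t-test 0, and 1 had an unadjusted p under 0.05 (6.97% of all genes did). It was *Lhx5*, a LIM homeobox gene of early neurons, at 437.1, 490.6, 607.9 and 571.7 on mutant arrays 1 to 4, against 692.7, 647.5, 655.5 and 692.1 on control arrays 1 to 4 (log2 fold change -0.35, standard error 0.11, adjusted p from limma = 0.551). For *Lhx5* all mutants lay below all controls, as for 2.15% of all genes, and its relative *Lhx1* gave -0.24. *Ptf1a*, needed for cerebellar GABAergic neurons, gave -0.50 and read 36.0, 60.2, 88.5 and 102.9 on mutant arrays 1 to 4, against 71.6 to 141.8 on controls. *Olig3*, a gene of dorsal hindbrain progenitors, gave -0.30. The mean of the list was -0.34, -0.22, -0.043 and -0.082 on mutant arrays 1 to 4, and -0.17 to 0.095 on controls, so the 2 lowest arrays were those with the mesenchyme signal. With mutant arrays 3 and 4 alone the median was -0.050.

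In front of the midbrain, 14 of 16 forebrain regional genes were measured, 5 above and 9 below the control level, with a median of -0.047 (-0.16 with mutant arrays 3 and 4 alone). None was called by limma (0) or the methods' t-test (0), and 4 had an unadjusted p under 0.05 (6.97% of all genes did). These 4 were the ventral forebrain homeobox genes *Dlx1*, *Dlx2* and *Dlx5* (log2 fold changes of -0.68, -0.56 and -0.46, adjusted p from limma = 0.166, 0.0944 and 0.12) and the cortical gene *Emx1* (0.55, adjusted p from limma = 0.688). For the 3 *Dlx* genes all mutants lay below all controls, as for 2.15% of all genes, and all 7 boundary genes overlapped. Limma with a trend and robust variances called all 3 *Dlx* genes, where the main fit called none of them. The main fit called 0.225% of all genes, and the share in the trend and robust fit is not given here. Of the 25 alternatives only 1 called *Dlx1*, 1 called *Dlx5* and 2 called *Dlx2*. The markers of head epithelium, eye and ear gave a median of 0.081, with 6 of the 12 genes below 16 in mean intensity, and 0 calls. The keratin *Krt5* of that list gave 0.38. The 8 neural markers gave a median of -0.057 and 0 calls, with the neuronal *Map2* at -0.10.

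The genes whose course over the 8 arrays lay closest to a boundary gene were looked up among 10693 others with a mean intensity of at least 64. Likeness was the mean absolute difference, per array, between log2 values centred on each gene's own mean. For *En1* these were *Esrrg*, *Anks1b* and *Rab9b*, at 0.076, 0.076 and 0.079, against a mean absolute deviation of 0.23 for *En1* itself. For *Gbx2* they were *Lrrtm2*, *Pcdhb7* and *Vps37d*, at 0.081, 0.090 and 0.0999 against 0.25. For *Lmx1b* they were *Prrt1*, *Grm5* and *Dtx1*, at 0.064, 0.078 and 0.095 against 0.23, and for *En2* they were *Fam98c*, *Ccdc22* and *Usf2*, at 0.020, 0.025 and 0.027 against 0.060. None of these 4 boundary genes appeared among the closest 3 of another, and *Pax5*, *Wnt1* and *Fgf8* were too dim to be looked up. With only 3 genes taken from 10693, this absence cannot show whether the boundary genes vary together.

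REST binds a long DNA element, RE1, made of a left and a right part. A core of each, CAGCACC and GGACAGC, was searched on both strands in RefSeq promoters (GRCm38.p6, 250 bases before to 50 after the start site). There are 8 such promoters for 6 of the boundary genes, *Pax2* included, and the table holds none of *En2* or *Fgf8*. GGACAGC was found in 0 of the 8, and in 6.56% of all 32851 promoters searched. With 8 promoters, 0 matches cannot be told from that share. The RE1 sites that the paper tested in *Glra* and *Snap25* lie more than 50 bases after the start site, outside this window. CAGCACC was found in 1 of the 8, that of *Gbx2*, and in 7.14% of all. The match is shown because it is the only 1 of either core among the 8 promoters. It is read on the opposite strand and begins 9 bases before the start site, in chr1:89931168-89931196 on the minus strand, with the core in capitals.
*Gbx2* promoter: cgcgatttaaaGGTGCTGgcggcgcccgc
A match of this length is a description of these letters and not a REST binding site.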

How the data were processed

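Brain RNA of 8 E12.5 samples, 4 per genotype, was hybridised to 1-colour Affymetrix mouse arrays. Per the methods, AffyPLM served for quality control and RMA, and GeneSifter for the log2 step and for t-tests adjusted after Benjamini and Hochberg. No version of RMA is given in the sources used here. The values the authors deposited are linear intensity values per probe set, with array medians of 40.9 to 68, so they are not on the log2 scale of RMA output, and which step made them is not stated. Here the arrays were quantile normalized, 16 was added and log2 taken, so changes of dim probe sets are understated: 30.6% of probe sets have a mean below 16. The 64 control probe sets of the manufacturer were dropped from the 45101. The annotation names 1 gene for 34945 of the rest, several for 932 and none for 9160, and the brightest probe set stands for a gene. The number of arrays limits the precision.

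Mutants were compared with controls by R 4.3.3 and limma 3.58.1 (lmFit, eBayes), adjusted by Benjamini-Hochberg over all 45037 probe sets and called at 0.05. The test was tried on simulated arrays with known changes. The 8 members, the 11 further lists and the settings were chosen with earlier results of these data known. Named are all member probe sets, up to 4 genes per list with the smallest p (2 for marker lists), the 3 closest profiles per member with a mean of at least 64, and *Rest*. *Otx2*, *Pax8*, *Cdh1*, *Xist* and *Eif2s3y* fall outside this and were chosen with their values known.

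Alternatives were the methods' t-test with equal or unequal variances, trend and robust eBayes, a filter at a mean of 32, a common median, cyclic loess or no scaling, constants of 1 and 50, the mean of a gene's probe sets, leaving out less specific probe sets, a replicate block, *Eif2s3y*, the *Hox* and segment mean or the mesenchyme mean as a covariate, and leaving out mutant arrays 1 and 2, control arrays 2 and 3, or each array. Leaving out each array from the fit with the *Hox* and segment mean was added after seeing the data.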

Additional observations from a re-analysis of the deposited data

Results flagged for a closer look

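For each of the 9 probe sets and both genotypes, 18 groups of 4 arrays in all, the most distant array was set against the spread of the others, a check that chance alone trips in about 1 group in 20. It picked out 2 groups. *En1* on mutant array 3 read 146.6, with a gap to the next mutant array of 0.831 of the group's whole range on the intensity scale. *Gbx2* on control array 1 read 392.3, with a gap of 0.844 of the range of intensities and 0.831 on the log2 scale. Mutant array 3 and control array 1 are also the arrays with the highest *Hox* and segment mean in their genotypes, 1.42 and 0.45.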

How the results depend on the processing

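No boundary gene was called in any of the 25 alternatives run (*Wnt1* was not tested under the filter on dim probe sets), and the lowest adjusted p among them was 0.173 for *Fgf8*, from limma with the *Hox* and segment mean. *En2* and *Fgf8* kept their direction in all. *En1*, at -0.0061, turned to 0.018 with cyclic loess, 0.081 with no scaling, 0.098 with the mesenchyme mean and 0.16 without mutant arrays 1 and 2, with -0.17 to 0.074 on leaving out 1 array. *Wnt1* turned to 0.021 with *Eif2s3y*, 0.044 with the mesenchyme mean, 0.018 without mutant arrays 1 and 2 and 0.0048 without control arrays 2 and 3, with -0.19 to 0.099 on leaving out 1 array (-0.40 to 0.20 with the *Hox* and segment mean, where *Lmx1b* ran from -0.13 to 0.0999). *Pax5* turned to 0.047 with *Eif2s3y* and 0.025 without control arrays 2 and 3, *Gbx2* to 0.032 without mutant arrays 1 and 2, and *Lmx1b* to -0.061 with the mean of its probe sets. The median of the 7 genes, -0.081, turned to 0.044 with the mesenchyme mean, 0.021 with *Eif2s3y*, 0.020 without mutant arrays 1 and 2 and 0.0048 without control arrays 2 and 3, with -0.12 to 0.022 on leaving out 1 array. Without mutant arrays 1 and 2, *Etv4* gave -0.018 and *Foxc1* -0.086. The cause of these turns was not tested.

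Over the whole array the 41 calls became 14 with the methods' t-test and 0 with unequal variances in it, 2 with no scaling, 26 with a constant of 1, 14 with *Eif2s3y*, 23 with the mesenchyme mean, 0 without mutant arrays 1 and 2, 5 without control arrays 2 and 3, and 21 to 31 on leaving out 1 array. The replicate numbers did not pair the arrays: residual correlations ran from -0.13 to 0.0068 between arrays of the same number and from -0.061 to 0.11 between others. With the replicate block 0 genes and 0 boundary genes were called. The second probe sets of *Pax5* and *Lmx1b* lie under 16 in mean intensity and bound little.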
